A study of Homo sapiens with 12 samples.

Results

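Transcripts of 10 immediate early genes were followed in 2 uveal melanoma cell lines treated with an inhibitor of ATR, a checkpoint kinase that acts at stalled replication forks. The genes were the FOS family (FOS, FOSB, FOSL1 and FOSL2), the JUN family (JUN, JUNB and JUND), EGR1 and EGR3, and IER2. They were picked by gene name, all 10 were present in the count tables of both lines, and they are 10 of 48283 features counted in either line. They and the gene lists below were chosen with earlier results of these data known. Their counts of calls, set beside the shares of all genes, are therefore a description and no test of an excess. Cells of the line 92.1 and of the line MP38 spent 72 hours in VE-822 (berzosertib), the ATR inhibitor, or in DMSO, its solvent. The dose of VE-822 is not given in the sources used here; it was set so that about 40% of cells were viable when RNA was taken, so dose and line cannot be told apart. Each of the 4 groups (92.1 in VE-822, 92.1 in DMSO, MP38 in VE-822 and MP38 in DMSO) had 3 libraries of poly(A) RNA, 12 in all. The labels do not say whether these came from separate cultures, so p-values measure the spread between these libraries, which may be technical. The design addresses how ATR inhibition alters transcripts in each line and whether 92.1 and MP38 differ in this. In VE-822, ATR inhibition and the loss of viability cannot be told apart.

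AP-1 is a dimer of basic leucine zipper proteins, either a FOS family protein with a JUN family protein or a pair of JUN family proteins. It binds short DNA elements in genes of proliferation, invasion and stress responses. Immediate early genes are transcribed within minutes of growth factor or stress signals, without new protein synthesis, through factors such as SRF with its ELK partners, and CREB, that MAP kinases switch on. EGR1 and EGR3 are zinc finger factors induced in the same way, and uveal melanoma usually carries activating mutations of GNAQ or GNA11, whose Gq subunits feed the MAP kinase cascade.

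The DNA just upstream of these genes is shown for EGR1 and FOSB, which had the largest fold increases in 92.1, for FOS, the founding member of its family, and for JUN. Each sequence is the 250 bases before the RefSeq start of the gene, 5′ to 3′ on the gene's strand, from the RefSeq promoter table (GRCh38.p14), which held 8 of the 10 genes (not FOSL1 or EGR3). Capitals mark matches on either strand to 5 motifs: the serum response element (CArG box) of SRF, the core TGACGT of the CREB element, the JUN/ATF element TGACNTCA, the AP-1 element TGANTCA and the EGR element GCGNGGGCG. A match to TGACNTCA can also hold TGACGT. The EGR1 window, chr5:138465229-138465478 on the plus strand, has 2 serum response elements, 2 TGACGT cores and 1 EGR element. The FOS window, chr14:75278578-75278827 (plus strand), and the FOSB window, chr19:45467746-45467995 (plus strand), have 1 TGACGT core each. In the JUN window, chr1:58784048-58784297 on the minus strand, the capitals are a JUN/ATF element.
EGR1: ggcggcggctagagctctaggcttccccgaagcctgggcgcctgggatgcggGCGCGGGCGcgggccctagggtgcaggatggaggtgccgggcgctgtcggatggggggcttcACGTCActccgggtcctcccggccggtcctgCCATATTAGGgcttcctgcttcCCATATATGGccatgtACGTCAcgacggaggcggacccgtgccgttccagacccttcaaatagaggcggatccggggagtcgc
FOSB: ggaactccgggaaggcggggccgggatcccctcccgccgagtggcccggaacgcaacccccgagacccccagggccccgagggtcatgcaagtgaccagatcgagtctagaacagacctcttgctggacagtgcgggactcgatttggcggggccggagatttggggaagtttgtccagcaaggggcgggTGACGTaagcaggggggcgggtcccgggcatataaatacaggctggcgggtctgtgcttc
FOS: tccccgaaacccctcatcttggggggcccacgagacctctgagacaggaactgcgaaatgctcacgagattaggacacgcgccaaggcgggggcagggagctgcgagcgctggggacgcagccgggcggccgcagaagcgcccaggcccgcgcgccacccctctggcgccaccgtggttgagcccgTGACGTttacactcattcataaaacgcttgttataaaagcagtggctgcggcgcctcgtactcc
JUN: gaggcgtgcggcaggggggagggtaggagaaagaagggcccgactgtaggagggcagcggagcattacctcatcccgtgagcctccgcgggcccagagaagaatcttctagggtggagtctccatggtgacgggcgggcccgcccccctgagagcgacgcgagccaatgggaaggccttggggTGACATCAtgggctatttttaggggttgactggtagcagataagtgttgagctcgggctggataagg

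The serum response element matched in 1 of the 8 windows and in 1.16% of 35116 RefSeq windows of the same length. The TGACGT core matched in 5 of 8 (FOS, FOSB, FOSL2, JUND and EGR1), against 7.10% of all windows. TGACNTCA matched in 2 of 8 (JUN and JUND), against 6.87%, and GCGNGGGCG in 1 of 8 (EGR1), against 8.41%. TGANTCA matched in 0 of 8, against 6.57%, and the windows of JUNB and IER2 held none of the 5 motifs. These are matches of letters in a short window; the well-studied serum response element of FOS lies further upstream than the bases shown.

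Total counts per library were 112374503 to 137664800 in 92.1 and 54415628 to 63638976 in MP38, so the rarest member in any library, FOSL1 in 92.1 in DMSO, still had 158 to 180 counts. In 92.1, DMSO library 3 stood apart. Its chi-square per gene against DMSO libraries 1 and 2 was 87.9 and 89.7, while all other pairs of replicates had 2.37 to 8.48. Calls of the 10 genes and counts of the gene lists that change without this library are given both ways. All 8 melanocyte markers had reads in every group. In 92.1 they summed to 19644 to 19918 CPM (counts relative to the scaled total of each library, within a line) in VE-822 and 18824 to 19035 CPM in DMSO. In MP38 they summed to 5585 to 5589 CPM in VE-822 and 4570.3 to 4755 CPM in DMSO. Single markers did not all follow the sum. DCT (log2 fold change -1.57 in 92.1 and -0.52 in MP38) and MITF (-0.42 and -0.26) were lower in VE-822 in both lines. MLANA (0.22 and 1.30) was higher in both. In 92.1 the call of MLANA was lost in 3 of the fits that left out 1 library. S100B was rare in 92.1, with 0.196 CPM in VE-822 and 0.0692 CPM in DMSO. The 4 endothelial markers summed to at most 3.86 CPM in any library and the 4 fibroblast markers to at most 5.86 CPM, while the 4 epithelial markers reached 16.2 CPM in MP38 in DMSO. KRT5 and CDH5 in 92.1 and DCN in both lines had no read in DMSO. The endothelial and fibroblast sums were higher in every VE-822 library than in every DMSO library of the same line, while in MP38 the epithelial sum was lower, 9.71 to 11.1 CPM in VE-822 and 14.2 to 16.2 CPM in DMSO. Their part in the results was not tested.

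Before the response is considered, the untreated lines differed in most of these transcripts, no more often than in all genes (79.7% of those tested). Levels between genes are compared in FPKM, which is scaled for the length of the gene model. In 92.1 in DMSO, JUND was the most abundant at 59.3 ± 8.75 FPKM (mean ± SD, n = 3 libraries, as for all means). IER2 (9.83 ± 0.999), JUNB (8.59 ± 1.09) and JUN (6.67 ± 0.735 FPKM) followed, and of these JUNB overlapped with both its neighbours in range. Then came FOS (3.45 ± 0.206), FOSL2 (2.33 ± 0.128), EGR1 (2.21 ± 0.170), FOSL1 (0.768 ± 0.0865), FOSB (0.511 ± 0.0150) and EGR3 (0.380 ± 0.0960 FPKM). FOSL2 and EGR1 overlapped in range, and no other neighbours from FOS to EGR3 did. In MP38 in DMSO, JUND was also first at 44.0 ± 2.31 FPKM, but FOSL1 was second at 28.4 ± 2.04 FPKM. JUNB (18.7 ± 0.783), EGR1 (17.9 ± 3.68) and IER2 (17.5 ± 0.524 FPKM) came next with overlapping ranges, and JUN (7.12 ± 0.740) overlapped with EGR3 (6.76 ± 0.534). FOSL2 (5.26 ± 0.227) overlapped with FOS (4.78 ± 0.313), and FOSB was last at 0.658 ± 0.0331 FPKM.

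The order in VE-822 was not the same. In 92.1 in VE-822, JUND (70.6 ± 4.25 FPKM) was followed by EGR1 (17.2 ± 8.38) and JUNB (12.1 ± 1.72), whose ranges overlapped. IER2 (9.45 ± 0.738), JUN (9.37 ± 1.48) and FOS (7.50 ± 2.01 FPKM) overlapped in turn, as did FOSB (2.21 ± 0.422) with FOSL2 (2.20 ± 0.130) and FOSL1 (1.31 ± 0.108) with EGR3 (1.09 ± 0.193 FPKM). EGR1 thus had rank 2 of the 10 in 92.1 in VE-822 and rank 7 in DMSO. In MP38 in VE-822, FOSL1 (94.7 ± 11.8), JUND (49.9 ± 2.08) and EGR1 (42.4 ± 3.61 FPKM) led without overlap. IER2 (24.5 ± 1.12) overlapped with JUNB (23.2 ± 1.17), and JUN (7.58 ± 0.423), FOS (7.34 ± 0.371) and FOSL2 (6.90 ± 0.272 FPKM) overlapped in turn. EGR3 (4.33 ± 0.0556) and FOSB (1.13 ± 0.138 FPKM) were last.

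Gene by gene, 92.1 in DMSO was set against MP38 in DMSO in the joint fit of all 12 libraries (edgeR quasi-likelihood F test, Benjamini-Hochberg adjustment over all 24958 genes tested, called under 0.05, as in all fits). The test called 7 of the 10 genes, against 79.7% of all genes. JUND, the JUN protein present in most resting cells, was the 1 gene higher in 92.1 (38.5% of all genes tested were called higher). The other 6 that were called were lower (41.2% of all genes were called lower). FOSL1, which encodes FRA1, the FOS protein linked to invasive growth, had 1.64, 1.50 and 1.31 CPM in 92.1 libraries 1, 2 and 3, against 55.2, 54.9 and 48.6 CPM in MP38. Its log2 fold change was -4.99 ± 0.113 (SE, as for all fold changes; adjusted p = 6.38e-16), that is 31.8-fold lower in 92.1. EGR3 had 2.02, 2.41 and 1.45 CPM in 92.1, against 34.8, 35.3 and 30.6 CPM in MP38 (log2 fold change -3.94 ± 0.146, 15.3-fold lower). EGR1 had 7.32, 6.45 and 7.53 CPM in 92.1, against 62.4, 61.5 and 42.4 CPM in MP38 (-2.80 ± 0.244, 6.97-fold lower). In these 3 genes every library of 92.1 was far below every library of MP38. CPM is scaled within each line and the fold changes in the joint fit, so ratios of these CPM values need not equal them. FOSL2, JUNB and IER2 were lower in 92.1 by smaller factors, with log2 fold changes of -0.96 ± 0.0577, -0.91 ± 0.0961 and -0.62 ± 0.0698. JUND had 0.65 ± 0.0803 (adjusted p = 1.59e-06). FOS (-0.25 ± 0.127, adjusted p = 0.0787), FOSB (-0.15 ± 0.129) and JUN (0.12 ± 0.103) did not pass the threshold, and with library size as the only scaling FOS and FOSB were called lower and JUN had -0.09. The lines have separate tables and depths, so differences in how their libraries were made cannot be told apart from the line.

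**Figure D1:**
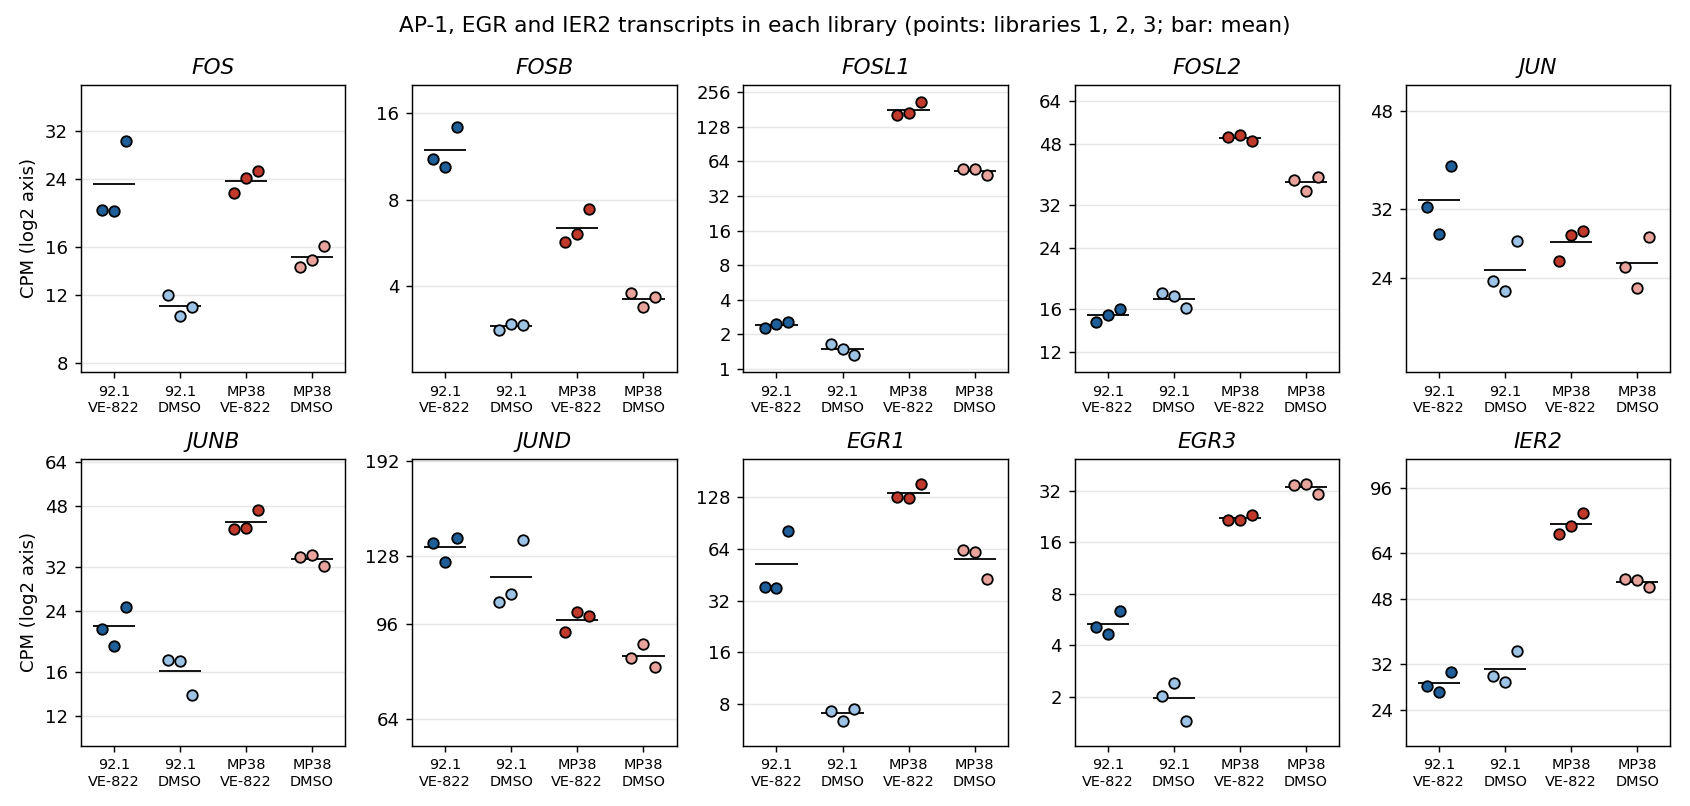
CPM (log2 axis, a range of its own for each gene) of the 10 genes in each library of 92.1 in VE-822, 92.1 in DMSO, MP38 in VE-822 and MP38 in DMSO; points are libraries 1, 2 and 3 from left to right and the bar is their mean. EGR1 in 92.1 sits at 38.0 to 80.8 CPM in VE-822, all above 6.45 to 7.53 CPM in DMSO, while EGR3 lies higher in VE-822 in 92.1 and lower in VE-822 in MP38.

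In 92.1, 7 of the 10 genes were higher under VE-822, against 20.3% of all 22943 genes tested that were called higher and 39.9% called in either direction. They were FOS, FOSB, FOSL1, JUN, JUNB, EGR1 and EGR3. edgeR called 0 of 10 lower (19.6% of all genes), as did DESeq2, and at an unadjusted p under 0.05 there was 1, FOSL2. All VE-822 libraries were above all DMSO libraries for 7 of 10 genes (27.8% of all genes), and the groups did not overlap for 8 of 10 (52.9% of all genes). EGR1 and FOSB had the largest fold changes, 7.37-fold and 4.11-fold. In bulk libraries, more RNA per cell and a larger share of cells that hold the transcript cannot be told apart, and counts are relative to the rest of the library.

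EGR1, the immediate early factor of growth factor and stress signals, had 38.2, 38.0 and 80.8 CPM in 92.1 in VE-822 (libraries 1, 2 and 3, as in all such lists), against 7.32, 6.45 and 7.53 CPM in DMSO. The groups were far apart, and VE-822 library 3 stood at 2.12 times the mean of the other two. The log2 fold change was 2.88 ± 0.288 (adjusted p = 0.000102), and without VE-822 library 3 it was 2.42 (adjusted p = 1.58e-05). EGR3, a related factor that EGR1-inducing signals also switch on, had 5.10, 4.65 and 6.33 CPM in VE-822, against 2.02, 2.41 and 1.45 CPM in DMSO. Every VE-822 library lay above every DMSO library (1.45 ± 0.189, adjusted p = 0.000459).

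FOSB, whose protein FosB pairs with JUN proteins and is known for lasting induction in neurons, had 11.1, 10.4 and 14.4 CPM in 92.1 in VE-822, against 2.81, 2.96 and 2.94 CPM in DMSO. The DMSO libraries had an SD of 0.0813 CPM, and all VE-822 libraries were far above them (2.04 ± 0.126, adjusted p = 6.62e-06). FOS had 19.9, 19.9 and 30.0 CPM in VE-822, against 12.01, 10.6 and 11.2 CPM in DMSO. The groups did not overlap, and library 3 was again the highest of the VE-822 libraries (1.05 ± 0.155, adjusted p = 0.000907). FOSL1 had 2.25, 2.44 and 2.57 CPM in VE-822, against 1.64, 1.50 and 1.31 CPM in DMSO. It was higher at a low level, with no overlap (0.70 ± 0.123, adjusted p = 0.00221). FOSL2, which encodes FRA2, had 14.7, 15.4 and 16.0 CPM in VE-822, against 17.8, 17.4 and 16.1 CPM in DMSO. The VE-822 libraries were all below the DMSO libraries, by little in library 3, and the difference did not pass the threshold (-0.15 ± 0.0664, adjusted p = 0.0990). Without DMSO library 3 it did (-0.23, adjusted p = 0.000903).

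JUN, the protein for which the family is named, had 32.2, 28.8 and 38.3 CPM in 92.1 in VE-822, against 23.7, 22.7 and 28.0 CPM in DMSO. The lowest VE-822 library was just above the highest DMSO library (0.42 ± 0.115, adjusted p = 0.0192). JUNB, often a weaker activator than JUN, had 21.3, 19.1 and 24.6 CPM in VE-822, against 17.3, 17.2 and 13.8 CPM in DMSO. The groups did not overlap (0.43 ± 0.116, adjusted p = 0.0180). These were the least firm of the calls in 92.1. That of JUN was lost without DMSO library 1 (adjusted p = 0.0808), DMSO library 2 (0.0644), VE-822 library 1 (0.0518) or VE-822 library 3 (0.0774), and that of JUNB without VE-822 library 1 (0.0531) or 3 (0.0806). JUND had 135, 125 and 138 CPM in VE-822, against 105, 109 and 137 CPM in DMSO. DMSO library 3 lay among the VE-822 libraries, and the difference did not pass the threshold (0.18 ± 0.0975, 95% interval -0.04 to 0.40, adjusted p = 0.174). Without that library it did (0.28, adjusted p = 8.18e-06). In that fit 8 of the 10 genes were called higher (26.8% of all genes) and 1, FOSL2, lower (29.0% of all genes). There 13276 genes were called in either direction, against 9156 with the library. IER2, a nuclear protein of the immediate early response with no leucine zipper, had 27.9, 26.9 and 30.4 CPM in VE-822, against 29.7, 28.6 and 34.7 CPM in DMSO. The groups overlapped (-0.13 ± 0.0847, 95% interval -0.32 to 0.06, adjusted p = 0.265).

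In MP38, 8 of the 10 genes were higher under VE-822, against 26.9% of all 21415 genes tested. EGR3 was lower, 1 of 10 against 25.4% of all genes, and JUN did not pass the threshold, so that 9 of 10 were called in either direction, against 52.3% of all genes. The groups did not overlap for the same 9 of 10 (58.7% of all genes), with VE-822 on top in 8 (29.7% of all genes). FOSL1 had the largest fold change, 3.43-fold, and EGR1 the next, 2.44-fold.

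FOSL1 had 162, 169.8 and 212 CPM in MP38 in VE-822, against 55.2, 54.9 and 48.6 CPM in DMSO. The groups were far apart (log2 fold change 1.78 ± 0.0729, adjusted p = 5.34e-14), and FOSL1 became the most abundant of the 10 in FPKM, at 94.7 ± 11.8 in VE-822 and 28.4 ± 2.04 in DMSO. FOSB had 5.69, 6.06 and 7.45 CPM in VE-822, against 3.77, 3.40 and 3.66 CPM in DMSO (0.83 ± 0.106, adjusted p = 1.36e-06). FOS had 22.0, 24.1 and 25.1 CPM in VE-822, against 14.2, 14.8 and 16.1 CPM in DMSO (0.66 ± 0.0607, adjusted p = 1.28e-08). In both genes the lowest VE-822 library was above the highest DMSO library. FOSL2 had 50.2, 50.9 and 49.1 CPM in VE-822, against 37.9, 35.3 and 38.6 CPM in DMSO. This was a small difference between tight groups (0.43 ± 0.0434, adjusted p = 5.42e-08).

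EGR1 had 128, 125 and 152 CPM in MP38 in VE-822, against 62.4, 61.5 and 42.4 CPM in DMSO. The groups did not overlap, with DMSO library 3 below and VE-822 library 3 above their fellows (1.29 ± 0.0959, adjusted p = 5.67e-10). EGR3 had 21.6, 21.8 and 23.0 CPM in VE-822, against 34.8, 35.3 and 30.6 CPM in DMSO. Every VE-822 library was below every DMSO library, the opposite of EGR1 in the same cells (-0.60 ± 0.0549, adjusted p = 1.12e-08, 1.52-fold lower). IER2 had 72.2, 75.5 and 82.3 CPM in VE-822, against 54.4, 53.9 and 51.6 CPM in DMSO, with no overlap (0.53 ± 0.0457, adjusted p = 5.62e-09).

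The JUN family changed by small factors in MP38. JUNB had 41.2, 41.4 and 46.8 CPM in VE-822, against 34.3, 34.8 and 32.3 CPM in DMSO (0.35 ± 0.0508, adjusted p = 6.68e-06). JUND had 92.6, 101 and 99.5 CPM in VE-822, against 83.2, 88.1 and 80.1 CPM in DMSO (0.22 ± 0.0431, adjusted p = 0.000202). Both rose without overlap between groups. JUN had 25.7, 28.7 and 29.2 CPM in VE-822, against 25.1, 23.0 and 28.4 CPM in DMSO. DMSO library 3 lay between VE-822 libraries 1 and 2, and the interval of the fold change, -0.01 to 0.27, held 0 (0.13 ± 0.0650, adjusted p = 0.102). Without DMSO library 3 JUN was called higher (0.21, adjusted p = 0.00650), and likewise without VE-822 library 1 (0.19, adjusted p = 0.0304).

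**Figure D2:**
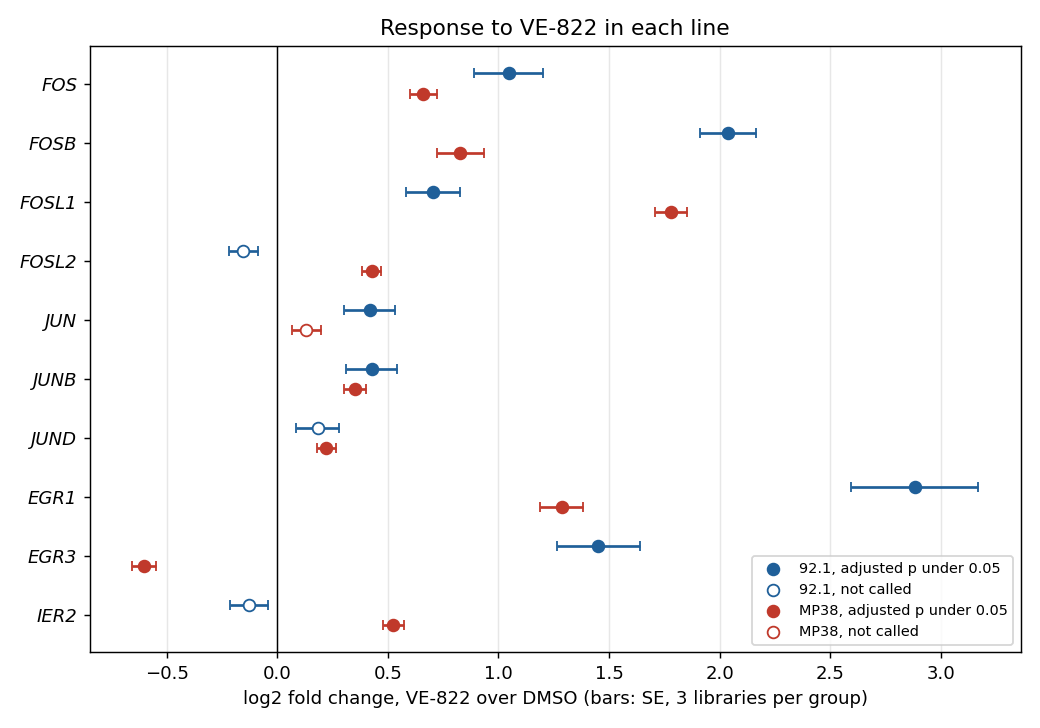
Log2 fold change of each gene, VE-822 over DMSO, with its SE from edgeR, in 92.1 (blue, upper) and MP38 (red, lower), 3 libraries per group; open points did not pass the threshold. EGR3 lies at 1.45 in 92.1 and at -0.60 in MP38, while FOSL1 lies at 0.70 in 92.1 and at 1.78 in MP38.

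Whether a gene responded differently in the 2 lines was tested as the 92.1 response minus the MP38 response in the joint fit. The difference passed the threshold for 6 of the 10 genes, against 40.9% of all genes. It was positive for EGR3, FOSB and EGR1 (3 of 10, against 22.1% of all 24958 genes tested) and negative for FOSL1, IER2 and FOSL2 (3 of 10, against 18.8% of all genes). The median difference over all genes was 0.11 on this log2 scale. EGR3 had the largest difference, 2.08 ± 0.191 (adjusted p = 3.4e-07), since it was higher in VE-822 in 92.1 and lower in VE-822 in MP38. The difference of EGR1 was 1.62 ± 0.322 (adjusted p = 0.000745) and was 1.12 without 92.1 VE-822 library 3 (adjusted p = 0.000229). That of FOSB was 1.24 ± 0.175 (adjusted p = 3.33e-05). The difference of FOSL1 was -1.05 ± 0.151 (adjusted p = 4.24e-05), with a rise in both lines that was the smaller in 92.1. IER2 had -0.62 ± 0.0983 (adjusted p = 9.67e-05) and FOSL2 -0.55 ± 0.0809 (adjusted p = 4.82e-05), and both rose in MP38 and did not pass the threshold in 92.1. All 6 calls held when any one of the 12 libraries was left out. FOS (0.41 ± 0.176, 95% interval 0.04 to 0.79, adjusted p = 0.0732) and JUN (0.32 ± 0.145, 0.01 to 0.63, adjusted p = 0.0955) did not pass, and both did with library size as the only scaling. The difference of JUN passed without 92.1 DMSO library 3 (0.36, adjusted p = 0.00987), and that of FOS without 92.1 VE-822 library 2 (0.47, adjusted p = 0.0494). JUNB (0.11 ± 0.134, -0.18 to 0.39) and JUND (-0.01 ± 0.113, -0.25 to 0.23) had intervals on both sides of 0.

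The make-up of the FOS family was unlike in the 2 lines. Shares were taken of the summed FPKM of FOS, FOSB, FOSL1 and FOSL2 in each library; they describe RNA, not protein or dimers. In 92.1 FOS had the largest share, 56.2% ± 3.60 in VE-822 and 48.9% ± 1.68 in DMSO. FOSB had 16.7% ± 0.574 in VE-822 and 7.25% ± 0.529 in DMSO, FOSL2 had 16.9% ± 2.29 in VE-822 and 33.0% ± 1.13 in DMSO, and FOSL1 had 10.1% ± 1.26 in VE-822 and 10.9% ± 0.771 in DMSO. So FOSB took a larger part and FOSL2 a smaller one in every VE-822 library of 92.1, while the ranges of FOSL1 overlapped. The family sum in 92.1 was 13.2 ± 2.63 FPKM in VE-822 and 7.06 ± 0.340 FPKM in DMSO. In MP38 FOSL1 made up 85.9% ± 1.36 of the family in VE-822 and 72.6% ± 2.33 in DMSO. FOS had 6.71% ± 0.530 in VE-822 and 12.3% ± 1.31 in DMSO, and FOSL2 had 6.33% ± 0.876 in VE-822 and 13.5% ± 1.04 in DMSO, although the level of each rose. The family sum in MP38 was 110.0 ± 11.9 FPKM in VE-822 and 39.1 ± 1.60 FPKM in DMSO.

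JUND made up most of the JUN family in both lines. In 92.1 its share was 76.7% ± 1.59 in VE-822 and 79.3% ± 2.67 in DMSO, and in MP38 it was 61.8% ± 1.29 in VE-822 and 63.0% ± 1.21 in DMSO. These ranges overlapped between treatments in each line. The family sum was 92.1 ± 7.40 FPKM in VE-822 and 74.6 ± 8.38 FPKM in DMSO in 92.1 cells, and 80.7 ± 2.68 FPKM in VE-822 and 69.8 ± 2.32 FPKM in DMSO in MP38 cells. Of the summed FPKM of EGR1 and EGR3, EGR1 held 93.5% ± 1.60 in VE-822 and 85.2% ± 4.12 in DMSO in 92.1, and 90.7% ± 0.598 in VE-822 and 72.3% ± 2.89 in DMSO in MP38.

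**Figure D3:**
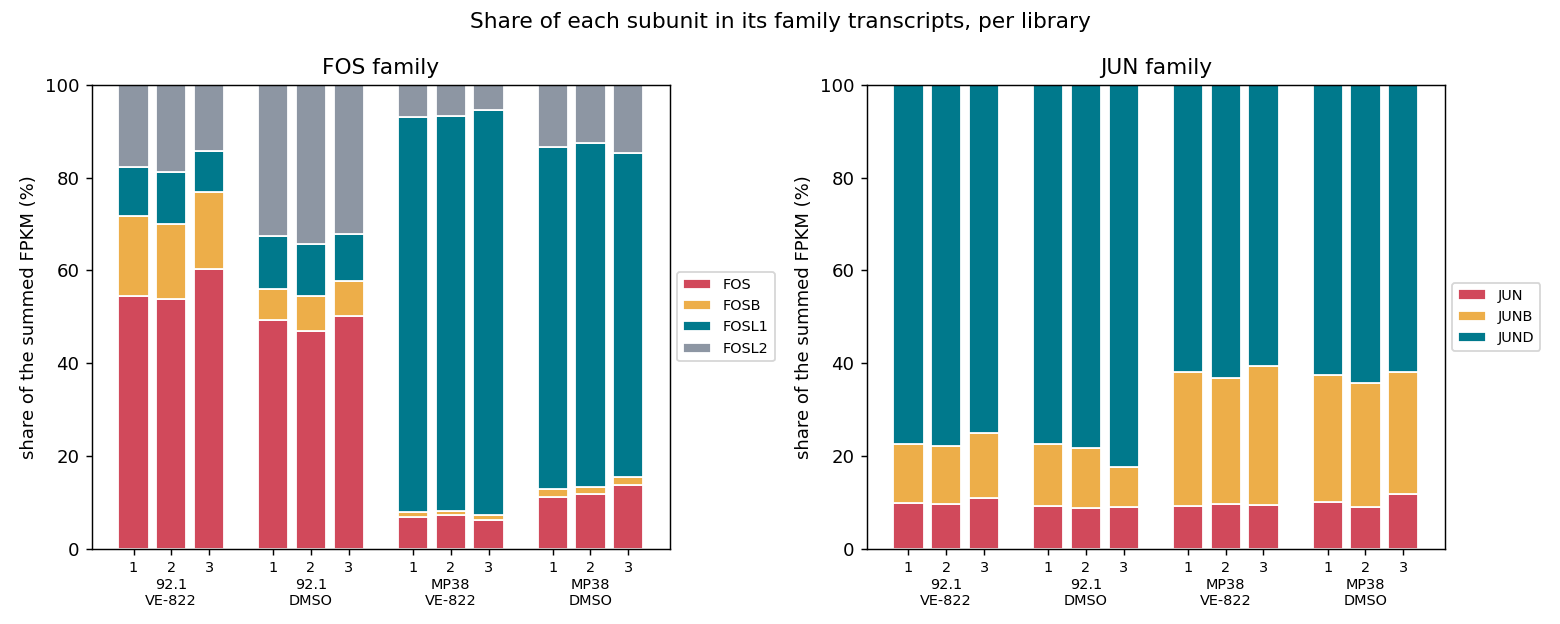
Share of each subunit in the summed FPKM of the FOS family (left) and the JUN family (right) in each library, VE-822 and DMSO libraries 1 to 3 of 92.1 and then of MP38. FOSL1 takes 85.1% to 87.5% of the FOS family in MP38 in VE-822 against 69.9% to 74.1% in DMSO, and JUND is the largest part of the JUN family in every library.

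The genes varied to different extents among replicates. In 92.1 in VE-822, library 3 was the highest of the 3 libraries for 10 of the 10 genes. The same library was highest for 15 of 30 other immediate early genes and for 31.7% of all genes tested. Its level over the mean of libraries 1 and 2 was 2.12 for EGR1, 1.51 for FOS, 1.34 for FOSB, 1.30 for EGR3, 1.25 for JUN and 1.22 for JUNB, and 1.06 to 1.11 for the other 4. This library also had the lowest total of the 92.1 VE-822 libraries, 113370680 counts against 137664800 and 136148839, and the part of depth in this was not tested. In MP38 in VE-822, library 3 was highest for 8 of the 10 genes, for 24 of 30 other immediate early genes and for 39.1% of all genes. There the ratios were smaller, 1.28 for FOSL1, 1.27 for FOSB and 1.20 for EGR1. In DMSO no library led in this way among the 10 genes, library 3 being the highest for 4 of 10 in 92.1 and for 3 of 10 in MP38. Of the 30 other immediate early genes, MP38 DMSO library 2 was the highest for 16, against 31.1% of all genes. Each DMSO library of 92.1 was the highest for 10 of the 30. The coefficient of variation of EGR1 in 92.1 in VE-822, 47.1%, was the widest of any gene and group among the 10, and that of FOSL2 in MP38 in VE-822, 1.90%, the narrowest.

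**Figure D4:**
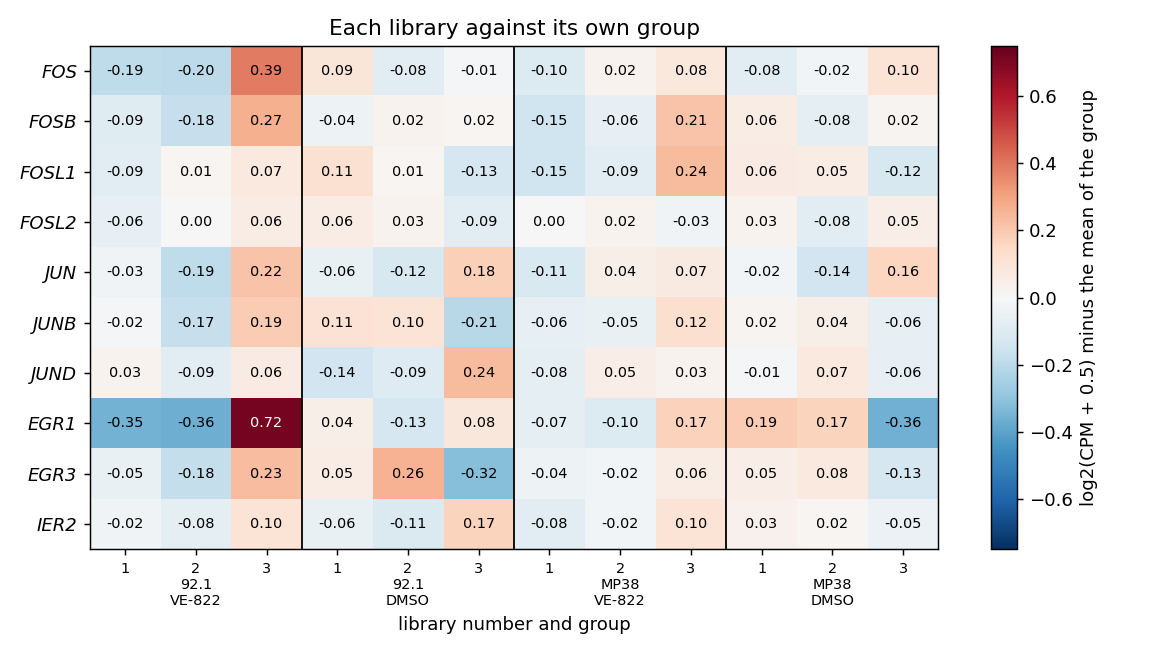
Log2(CPM + 0.5) of each gene in each library minus the mean of its own group, for VE-822 and DMSO libraries 1 to 3 of 92.1 and of MP38. The column of 92.1 VE-822 library 3 is above 0 for all 10 genes, most for EGR1 at 0.72, and 92.1 DMSO library 3 is above its group for JUND and below it for EGR3.

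Over the 12 libraries, with each line's mean subtracted, the gene whose log2(CPM + 0.5) was most like that of FOSB, among 9750 protein-coding genes that did not include the 10, was CDKN1A (Pearson r = 0.990, a description over libraries that share treatments). CDKN1A had 511 ± 52.4 CPM in VE-822 and 18.4 ± 2.23 CPM in DMSO in 92.1, and 44.1 ± 7.39 CPM in VE-822 and 10.4 ± 0.743 CPM in DMSO in MP38. PLK3 (0.989) and DRAM1 (0.988) followed. Outside the 10, PLK3 was also the closest to EGR1 (r = 0.973), though FOSB itself was closer (0.981). FOSL1 was matched best by AIFM2, MAFF and RASAL2 (0.994 each), and EGR3 by SRRM3 (0.984), PIDD1 (0.980) and IGDCC4 (0.976), all 3 of which were higher in VE-822 in 92.1 and lower in VE-822 in MP38. IER2 was closest to NR4A1 (0.978), FOSL2 to ATG5 (0.975), FOS to SPSB2 (0.971), JUNB to RHOC (0.967), JUND to NFKB2 (0.960) and JUN to SPRYD4 (0.921). Between pairs of the 10, r ranged from 0.981 for EGR1 and FOSB, with 0.965 for EGR1 and FOS and 0.954 for FOS and FOSB, to -0.565 for EGR3 and IER2 and -0.597 for EGR3 and FOSL2.

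Of the other immediate early genes, 31 were listed and 30 tested in each line. In 92.1, 11 of the 30 rose (20.3% of all genes tested were called higher), 4 fell (19.6% of all genes) and 15 did not pass the threshold, with a median log2 fold change of 0.19 (0.03 over all genes tested). Without 92.1 DMSO library 3, 18 rose (26.8% of all genes) and 7 fell (29.0%). In MP38, 25 of 30 rose (26.9% of all genes) and 5 did not pass, with a median of 0.68 (-0.01 over all genes). The difference between lines itself was called for 20 of 31 (40.9% of all genes), positive in 4 (22.1% of all genes) and negative in 16 (18.8%). It was positive in 6 and negative in 15 without 92.1 DMSO library 3. In that fit 5897 of all genes were called positive and 6015 negative, against 5510 and 4704 with the library. ARC, a synaptic immediate early gene, had 5.24 ± 0.555 CPM in VE-822 and 0.610 ± 0.176 CPM in DMSO in 92.1 (log2 fold change 3.10 ± 0.187), and in MP38 its log2 fold change was 0.51 ± 0.146. BTG2, an antiproliferative gene, had 43.6 ± 3.43 CPM in VE-822 and 8.61 ± 0.552 CPM in DMSO in 92.1 (2.34 ± 0.0803), and in MP38 its log2 fold change, 0.14 ± 0.0878, did not pass the threshold. The kinase SGK1 had 383 ± 2.00 CPM in VE-822 and 157 ± 4.40 CPM in DMSO in MP38 (1.29 ± 0.0374), and fell by 0.34 in 92.1. KLF6, a zinc finger factor, had 289.6 ± 4.36 CPM in VE-822 and 129 ± 2.84 CPM in DMSO in MP38 (1.16 ± 0.0368), and fell by 0.19 in 92.1. CCN1, a secreted matricellular protein, rose in both, by 1.39 ± 0.0570 in 92.1 and 1.46 ± 0.0640 in MP38. The remaining EGR genes were rarer. EGR4 had 0.518 ± 0.0136 CPM in VE-822 and 0.0953 ± 0.0185 CPM in DMSO in 92.1 (2.43 ± 0.238), and EGR2 had 0.816 ± 0.0578 CPM in VE-822 and 0.479 ± 0.131 CPM in DMSO there.

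**Figure D5:**
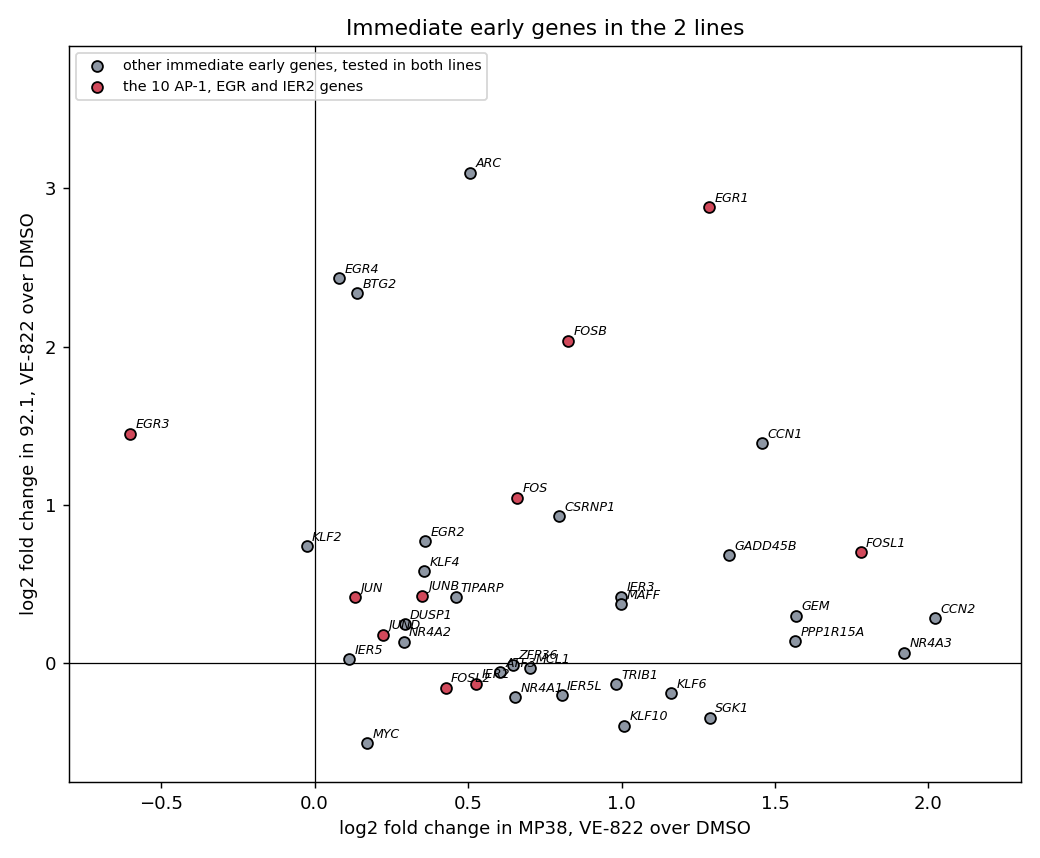
Log2 fold change, VE-822 over DMSO, in MP38 (x axis) and in 92.1 (y axis) for the 10 genes (red) and the other immediate early genes tested in both lines (grey). EGR1 lies at 1.29 and 2.88, FOSL1 at 1.78 and 0.70, and SGK1 at 1.29 and -0.34. ATF3 lies at 0.60 and -0.06, and in 92.1 it had 1.35 without DMSO library 3.

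Of 14 other leucine zipper genes whose proteins can pair with or compete with AP-1, 5 rose and 1 fell in 92.1, and 5 rose and 2 fell in MP38. ATF3 and MAFF are also among the other immediate early genes above, as is DUSP1 of the phosphatases below, so the counts of these lists overlap. Of all genes tested, 20.3% were called higher and 19.6% lower in 92.1, and 26.9% higher and 25.4% lower in MP38, and these shares hold for each list that follows. Without 92.1 DMSO library 3, where 26.8% of all genes were higher and 29.0% lower, 7 rose and 3 fell in 92.1, and without another of its libraries 5 rose and 0 to 2 fell. MAF rose in 92.1 by 0.85 ± 0.0555. The small MAF gene MAFF rose in both lines, by 0.38 ± 0.0641 in 92.1 and 1.00 ± 0.0516 in MP38, and MAFK rose in MP38 by 0.60 ± 0.0503. ATF3, a stress factor that pairs with JUN, had 37.4 ± 1.12 CPM in VE-822 and 24.6 ± 2.16 CPM in DMSO in MP38 (0.60 ± 0.0551). In 92.1 it had 14.8, 14.2 and 19.5 CPM in VE-822, against 6.39, 5.95 and 37.9 CPM in DMSO. DMSO library 3 was above all VE-822 libraries and the other two were below them, and the log2 fold change was -0.06 ± 0.625 with that library (adjusted p = 0.954) and 1.35 without it (adjusted p = 5.99e-09). Of the 12 factors that switch on immediate early genes, 1 rose and 5 fell in 92.1, and 4 rose and 4 fell in MP38, in MP38 not far from the shares of all genes. In 92.1, 2 rose and 9 fell without DMSO library 3, and without another of its libraries 1 rose and 1 to 4 fell. In 92.1 MRTFA, a coactivator of SRF, rose by 0.41 ± 0.0651 and CREB1 fell by 0.31 (SE 0.0454). In MP38 CREM, a relative of CREB1, rose by 1.13 ± 0.0471. NAB1, a corepressor that binds EGR proteins, had 48.1 ± 1.30 CPM in VE-822 and 64.2 ± 1.78 CPM in DMSO in 92.1, and 17.9 ± 0.607 CPM in VE-822 and 25.8 ± 0.912 CPM in DMSO in MP38. It fell in both lines (adjusted p = 0.000239 in 92.1 and 2.52e-08 in MP38), and NAB2 rose in 92.1 by 0.38 ± 0.0713.

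Of 25 genes of the MAP kinase cascade, 4 rose and 10 fell in 92.1, and 9 rose and 6 fell in MP38. Against 20.3% higher and 19.6% lower of all genes in 92.1, and 26.9% and 25.4% in MP38, the rises in 92.1 and the falls in MP38 were near the background. In 92.1, 4 rose and 17 fell without DMSO library 3, and without another of its libraries 1 to 3 rose and 5 to 9 fell. RPS6KA3, which encodes the ERK-activated kinase RSK2, had 510.2 ± 16.5 CPM in VE-822 and 649.9 ± 7.94 CPM in DMSO in 92.1, and 132 ± 1.66 CPM in VE-822 and 85.2 ± 1.28 CPM in DMSO in MP38. Its fold change was called in opposite directions, -0.35 ± 0.0461 in 92.1 and 0.63 ± 0.0358 in MP38. Of 10 MAP kinase phosphatases, 3 rose and 1 fell in 92.1, and 6 rose and 3 fell in MP38. Without 92.1 DMSO library 3, 4 rose and 3 fell in 92.1, and without another of its libraries 1 to 2 rose and 0 fell. Leaving out 1 library of MP38, 5 to 7 rose and 1 to 2 fell, so these counts rest on single libraries. DUSP6, the cytoplasmic ERK phosphatase, rose by 0.77 ± 0.0431 in MP38 and by 0.26 ± 0.0883 in 92.1 (adjusted p = 0.0465), a call lost in 5 of 6 fits that left out 1 library and held without DMSO library 3 (0.34, adjusted p = 4.47e-07). DUSP4, a nuclear MAP kinase phosphatase, rose by 0.34 ± 0.0440 in 92.1 and 0.51 ± 0.0439 in MP38.

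Of 23 genes known as AP-1 targets in other cells, 11 were tested in 92.1, of which 6 rose, 3 fell and 2 did not pass (median 0.19, and 0.03 over all genes), and 15 in MP38, of which 12 rose and 3 did not pass (median 0.73, and -0.01 over all genes). Of all genes, 20.3% were called higher in 92.1 and 26.9% in MP38, and 19.6% were called lower in 92.1. Without 92.1 DMSO library 3, 13 of these genes were tested in 92.1, of which 6 rose (26.8% of all genes) and 4 fell (29.0%). Without another of the 92.1 libraries, 4 to 5 rose and 3 fell. LIF, a cytokine of the IL6 family, had 3.44 ± 0.108 CPM in VE-822 and 0.148 ± 0.0416 CPM in DMSO in 92.1, and 52.9 ± 9.94 CPM in VE-822 and 13.1 ± 1.29 CPM in DMSO in MP38. IL24 had 21.0 ± 2.67 CPM in VE-822 and 3.10 ± 0.0512 CPM in DMSO in MP38 (2.76 ± 0.0894), and the collagenase MMP1 had 3.11 ± 0.491 CPM in VE-822 and 0.742 ± 0.155 CPM in DMSO there (2.06 ± 0.176). HMGA2, a chromatin protein, fell in 92.1, with 126 ± 2.92 CPM in VE-822 and 222 ± 22.1 CPM in DMSO, and rose in MP38, with 308 ± 7.09 CPM in VE-822 and 189.8 ± 7.96 CPM in DMSO. The urokinase receptor gene PLAUR likewise fell in 92.1, with 2.82 ± 0.212 CPM in VE-822 and 7.55 ± 1.52 CPM in DMSO, and rose in MP38, with 13.3 ± 1.31 CPM in VE-822 and 7.26 ± 1.10 CPM in DMSO (0.87 ± 0.0926, adjusted p = 1.01e-07).

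The sources used here do not say whether reads were counted by strand, so genes whose models overlap another are uncertain (coordinates are GRCh38, as in the deposited tables). FOSB (ENSG00000125740.14, chr19:45467995-45475179) overlaps ERCC1, a DNA repair gene. ERCC1 had 45.7 CPM in VE-822 and in DMSO alike in 92.1, where FOSB rose most, and 124 CPM in VE-822 and 87.0 CPM in DMSO in MP38 (0.51, adjusted p = 1.52e-08). JUNB (ENSG00000171223.6, chr19:12791486-12793315) overlaps HOOK2, which rose by 0.32 in 92.1 (adjusted p = 0.00358) and fell by 0.14 in MP38 (adjusted p = 0.00975). FOSL2 (ENSG00000075426.12, chr2:28392448-28417317) overlaps 2 noncoding genes with at most 16 counts in any library, and EGR3 (ENSG00000179388.9) overlaps 1 with at most 37. No overlapping gene was found for FOS (ENSG00000170345.10, chr14:75278826-75282230), FOSL1 (ENSG00000175592.9, chr11:65892049-65900573), JUN (ENSG00000177606.8, chr1:58776845-58784048), JUND (ENSG00000130522.6, chr19:18279694-18281622), EGR1 (ENSG00000120738.8, chr5:138465479-138469303) or IER2 (ENSG00000160888.7, chr19:13150411-13154911).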

How the data were processed

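Raw counts per gene, 1 table per line, were deposited by the authors with no normalization. The deposited FPKM values are the same counts scaled by the authors for gene length and library total. Per the submitters' processing notes, reads were processed on GRCh38.p13 with tools that included STAR 2.7.11a, featureCounts 2.0.6 and cutadapt 4.8; settings and strand are not given in the sources used here. Features without a row in a table had no test there.

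Counts were fitted in R 4.3.3 with edgeR 4.0.16: genes kept by filterByExpr (minimum count 10, minimum total 15), TMM scaling, quasi-likelihood F test, Benjamini-Hochberg adjustment over all genes tested, called under 0.05. Each line was fitted alone for VE-822 against DMSO; the difference between lines and the untreated lines came from 1 fit of 12 libraries over 38997 shared features, which assumes 1 spread per gene for both lines. A positive log2 fold change is higher in VE-822, or in 92.1. Its SE is taken from the F statistic, and 95% intervals use the degrees of freedom of the test. CPM uses the TMM factors of the gene's own line. The deposited FPKM was used for levels between genes, for shares and in limma 3.58.1 on log2(FPKM + 1) and log2(FPKM + 0.1). Other alternatives were RLE factors, library size alone, DESeq2 1.42.0, other filters, a robust fit, a replicate block and leaving out each library. On simulated counts with at least 1 CPM, 4-fold changes were recovered in 100.0% of genes in each fit, and 2-fold increases in 89.3% in the difference between lines. These rates rest on 22 to 41 genes per fold change and fit. The simulation changed few genes, gave all others the same mean in every group and had no library that stood apart. It therefore does not show how the fits performed on these data, where many genes were called.

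The 10 genes and all lists were chosen with earlier results of these data known. All 10 were named in every comparison, and of each list up to 4 called genes with the smallest adjusted p per line; the report names some of these. EGR2, and values in the other line, were added after values were seen. All 10 genes passed filterByExpr in every main fit. Of the marker lists, 1 is not reported here. Promoter sequences are from RefSeq (GRCh38.p14).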

Additional observations from a re-analysis of the deposited data

Results flagged for a closer look

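The response to VE-822 differed between the lines, by the test of the difference itself, for 6 of the 10 genes, against 40.9% of all genes. The 92.1 response minus the MP38 response was 2.08 (log2) for EGR3, 1.62 for EGR1 and 1.24 for FOSB. It was -1.05 for FOSL1, -0.62 for IER2 and -0.55 for FOSL2. EGR3 is the 1 gene of the 10 called in opposite directions in the 2 lines. With 3 libraries per group, no single library could be tested as an outlier.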

How the results depend on the processing

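Of the results for the 10 genes, 713 recomputed values kept their direction and their side of the threshold, 10 lost a call, 19 gained one and 13 changed sign, none of them called. The count of genes called in 92.1 was 9156, and was 5771 by limma on log2(FPKM + 1) with a mean FPKM of at least 1 and 5722 among genes of at least 5 CPM, where fewer genes were tested; the untreated lines had 19904, 11586 and 10334. Of the 10 genes, the number with a positive called difference between lines was 3, and 5 with library size alone and among genes of at least 5 CPM. The calls of all genes moved too, from 5510 positive and 4704 negative to 6455 and 3950 with library size alone. Among genes of at least 5 CPM they were 4156 and 3225. With library size alone, 92.1 had 5684 genes higher and 3534 lower, against 4658 and 4498. Leaving out 1 library, the difference between lines (log2) was -0.0441 to 0.161 for JUNB, negative without 92.1 DMSO library 3 and without 92.1 VE-822 library 3 (-0.0413), and -0.0962 to 0.0705 for JUND, positive without 92.1 DMSO library 3. The difference of JUND was 0.0677 with library size alone, 0.108 among genes of at least 5 CPM, and by limma 0.0770 with a pseudocount of 1, with or without a filter, and 0.0773 with 0.1. JUN in the untreated lines was -0.0947 with library size alone, -0.0445 among genes of at least 5 CPM, and by limma -0.0822 with a pseudocount of 1, with or without a filter, and -0.0929 with 0.1; the cause was not tested. By limma without a filter the 92.1 calls of JUN (adjusted p = 0.0664 and 0.0592) and JUNB (0.0631 and 0.0573) were lost. FOSL1 and EGR3 in 92.1 and FOSB in MP38 fell under the filter of 5 CPM, EGR3 in 92.1 and FOSB in MP38 under that of FPKM, and gave no value there.

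Same-numbered libraries deviated together only weakly in 92.1 (r = 0.0406 to 0.0822) and not in MP38 (-0.0208 to -0.00302). In 92.1, and not in MP38, each correlated best with its own number. With the replicate block, 8762 genes were called in 92.1, 10666 in MP38 and 9881 in the difference, against 9156, 11194 and 10214; the difference of JUN became called (0.31, adjusted p = 0.0210).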
